A study of Mus musculus with 8 samples.

Results

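Notch signalling was examined in spinal cord astrocytes through 10 genes, chosen by name with earlier results of these data known. They are the receptors Notch1, Notch2 and Notch3, the ligands Dll1 and Jag1, the nuclear effector Rbpj, and the targets Hes1, Hes5, Hey1 and Nrarp. These are 10 of the 39179 genes in the count tables. RNA was sequenced from Aldh1l1-GFP+ cells that had been flow sorted from dissociated spinal cord of mice of a mixed swiss-webster strain at postnatal days 12 to 14. All 8 libraries carry the Aldh1l1-GFP reporter. The 4 control libraries, named S1, S2, S6 and S7, come from cre-negative animals that the labels call wild-type. The 4 knockout libraries, named cKO S3, S4, S5 and S8, come from Aldh1l1-cre:Kir4.1-floxed/floxed animals. Kcnj10 encodes Kir4.1, a potassium channel through which astrocytes take up potassium. The cre driver and the reporter both rest on Aldh1l1, an astrocyte gene, so the sorted population and the deletion are set by the same gene. The labels describe the libraries as biological replicates and do not say whether animals were pooled.

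Notch receptors are single-pass membrane proteins that bind Delta and Jagged ligands on neighbouring cells. Binding leads to cleavage by a sheddase and then by gamma-secretase, and the freed intracellular domain enters the nucleus, where it joins RBPJ and Mastermind coactivators to switch on Hes and Hey repressors and the feedback inhibitor Nrarp. In the developing central nervous system the pathway is known for holding progenitors back from becoming neurons and for favouring astrocyte fates.

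RBPJ and the Hes repressors recognise short runs of letters in DNA, and the regions before the start of 3 genes are printed here to show where such letters lie: Hes5 as a classical target, and the receptors Notch1 and Notch2 because their libraries did not overlap between the groups. The sequences are the 250 bases before the start of each gene in RefSeq, build GRCm38.p6, written 5′ to 3′ on the strand of the gene. Capitals mark matches to TGGGAA, the core letters of the RBPJ site, or to CACNAG, the N box bound by Hes repressors, each searched in both orientations.
Hes5 (chr4:154960673-154960922, plus strand): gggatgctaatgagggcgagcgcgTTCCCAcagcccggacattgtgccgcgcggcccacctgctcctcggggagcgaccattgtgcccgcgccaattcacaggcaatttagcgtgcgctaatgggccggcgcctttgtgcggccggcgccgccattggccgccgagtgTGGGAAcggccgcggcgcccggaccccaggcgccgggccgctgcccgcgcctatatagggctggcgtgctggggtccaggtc
Notch1 (chr2:26503823-26504072, minus strand): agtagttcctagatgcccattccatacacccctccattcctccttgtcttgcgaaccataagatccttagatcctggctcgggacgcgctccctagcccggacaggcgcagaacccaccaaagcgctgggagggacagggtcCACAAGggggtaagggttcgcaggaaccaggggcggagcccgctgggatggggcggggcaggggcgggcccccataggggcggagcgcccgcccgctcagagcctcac
Notch2 (chr3:98013288-98013537, plus strand): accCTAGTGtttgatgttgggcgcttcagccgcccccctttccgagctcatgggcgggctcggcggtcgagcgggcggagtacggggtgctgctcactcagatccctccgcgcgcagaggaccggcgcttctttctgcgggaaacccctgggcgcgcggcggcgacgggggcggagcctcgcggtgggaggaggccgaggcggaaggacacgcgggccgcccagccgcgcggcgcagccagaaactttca
The Hes5 region holds TGGGAA in both orientations, ending 77 and 221 bases before the start. Among 32851 promoter windows of this length, 21.6% hold TGGGAA on either strand and 1.27% hold it in both orientations. The Notch1 and Notch2 regions each hold 1 N box match and no TGGGAA. An N box match of this kind is found in 36.7% of all windows. Of the 8 genes with an entry (10 starts), TGGGAA was found at Hes5 and Rbpj, and the N box at Notch1, Notch2, Notch3 and Nrarp. Hes1 and Hey1 had no entry. These are matches of letters, and no measurement here bears on binding.

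Depth ranged from 13892736 to 25065686 counts assigned to genes per library, and mitochondrial and rRNA-like transcripts took 34.6% to 47.2% of them. Levels are given as CPM, read counts scaled to the TMM-adjusted size of each library. Where 4 values are given for a group, they stand in the order S1, S2, S6, S7 for controls and S3, S4, S5, S8 for cKO libraries. Kcnj10, the targeted gene, was at 1820 ± 468 CPM in control and 33.97 ± 4.64 CPM in cKO libraries (mean ± SD, 4 libraries a group). Its log2 fold change was -5.74 (SE 0.245, adjusted p = 7.52e-08, edgeR quasi-likelihood test). Of 12 marker lists for astrocytes and other cell types and states, the lowest adjusted p of the difference between the groups was 0.392 (exact permutation tests). The smallest exact p of 4 against 4 libraries is 0.0286, so 1 list alone could not have passed after adjustment over 12, and this says nothing about a stable makeup. The 10 astrocyte markers were all detected, with summed levels of 20750 to 37000 CPM in control and 25810 to 33240 CPM in cKO libraries. Of these markers, 2 were higher in cKO without overlap and 0 lower, against 3.39% and 2.94% of all tested genes. Aldh1l1, the gene behind the reporter and the driver, ran from 131.4 to 151.5 CPM in control and from 244.5 to 349.8 CPM in cKO libraries. Aqp4, the water channel of astrocytes, ran from 1588 to 2454 and from 3373 to 5268 CPM. The other markers overlapped between the groups. Among them, Fgfr3 (621.1 to 903 and 558.6 to 648.5 CPM) and Gja1 (1475 to 3352 and 1064 to 2220 CPM) ran lower in cKO libraries at both ends of the range. Sox9 (147.9 to 202.9 and 184.9 to 255.3 CPM) ran higher at both ends. So did Aldoc (1077 to 2079 and 1366 to 2341 CPM) and Slc1a3 (546.8 to 719.5 and 594.6 to 751.6 CPM). For Slc1a2, Gfap and Atp1b2 the cKO range lay within the control range. The 10 oligodendrocyte markers summed to 1525 to 3061 CPM in control and 1018 to 2474 CPM in cKO libraries. The 7 oligodendrocyte precursor markers summed to 617.5 to 1580 and 683.6 to 843.7 CPM. Lower in cKO without overlap were 2 of 10 oligodendrocyte, 2 of 11 neuron and 1 of 6 fibroblast markers, and 0 were higher. The part of all these markers in the values of the Notch genes was not tested. In bulk RNA, fewer cells of a type and less RNA per cell cannot be told apart.

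None of the 10 genes passed an adjusted p of 0.05 in the edgeR test across 14757 genes, in which 47 genes (0.318%) passed. Low counts kept Dll1 out of the test. At an unadjusted p of 0.05, 3 of the 9 tested genes were higher in cKO libraries (Notch1, Notch2 and Hey1) and 1 was lower (Notch3), while 1447 of all tested genes (9.81%) passed that mark in either direction. For Notch1 and Notch2, all 4 cKO libraries lay above all 4 controls. Such a gap with cKO higher was found in 3.39% of all tested genes, and the opposite gap, found in none of the 9, in 2.94%. limma-voom called 0 of the 9. DESeq2 called 1 of the 10, Notch1, where it called 2.49% of all genes with an adjusted p. The authors' deposited table also holds Notch1 as the 1 gene of the 10 past an adjusted p of 0.05, against 2.87% of all its genes. The log2 fold change was positive for 6 of the 9 and negative for 3, with a median of 0.16 beside -0.02 over all tested genes.

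**Figure D1:**
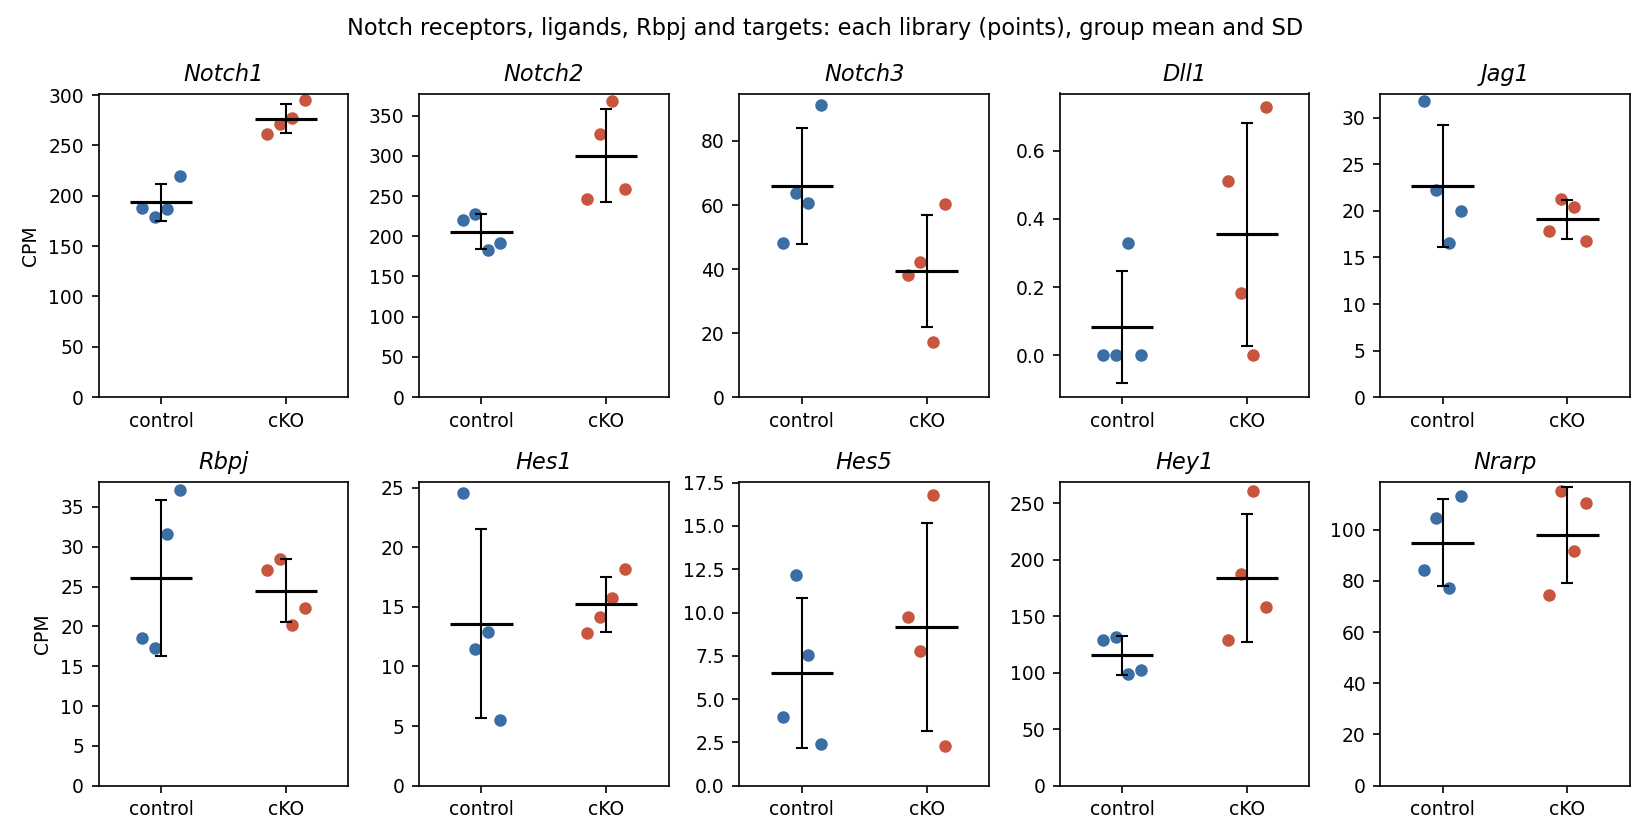
CPM of each of the 10 Notch genes in the 4 control (blue) and 4 cKO (red) libraries, 1 panel a gene with its own vertical axis. Points are libraries, horizontal lines group means and bars 1 SD. Notch1 and Notch2 are the genes whose groups do not overlap, Notch3 and Hey1 overlap at the edges, and Dll1 stays under 0.73 CPM.

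Of the receptors, Notch1 and Notch2 were measured higher and Notch3 lower in cKO libraries, none of them past the edgeR threshold. Notch1 (ENSMUSG00000026923, GRCm38 chr2:26457903-26516663, minus strand), the most studied of the receptors, was measured at 187.8, 179.4, 186.7 and 220.1 CPM in the controls and at 261.8, 271.1, 277.2 and 295.6 CPM in the cKO libraries. Every cKO library was above every control, with control S7 the nearest to them. The means were 193.5 ± 18.1 and 276.4 ± 14.3 CPM (SD, n = 4), a fold of 1.43 and a log2 fold change of 0.51 (SE 0.140, 95% interval 0.21 to 0.82). The edgeR adjusted p was 0.196, and DESeq2 gave 0.0135 for the same counts. The largest overlap with any single other annotated gene took 7.504% of the Notch1 exon length, 5.02% of that of Notch2 and 6.03% of that of Notch3. For Notch1, the exact permutation p of 0.0286, unadjusted and 2-sided, is the smallest that 4 against 4 libraries allow. On the deposited FPKM, length-scaled values from the authors, the Notch1 log2 fold change was 0.78 with limma on log2(FPKM + 1) (adjusted p = 0.641), and the spread was wider, at 69.98 ± 18.9 FPKM in control and 125.2 ± 47.7 FPKM in cKO columns.

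Notch2 (ENSMUSG00000027878, chr3:98013527-98150361, plus strand), the receptor closest to Notch1 in structure, was at 220.6, 227.2, 183.0 and 191.3 CPM in the controls. In the cKO libraries it was at 246.4, 327.3, 368.2 and 259.0 CPM. The groups did not overlap, but the cKO libraries were spread more widely, with S4 and S5 well above S3 and S8. The means were 205.5 ± 21.7 and 300.2 ± 57.6 CPM, a log2 fold change of 0.55 (SE 0.168, 95% interval 0.18 to 0.91). It was not called by edgeR (adjusted p = 0.264) or by DESeq2 (adjusted p = 0.0901).

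Notch3 (ENSMUSG00000038146, chr17:32120820-32166852, minus strand), a receptor best known from vascular mural cells that is also made by glia, was at 48.2, 63.6, 60.6 and 91.1 CPM in the controls. In the cKO libraries it was at 38.1, 42.1, 17.3 and 60.2 CPM. cKO S8 lay within the control range, and cKO S5 was the lowest of all 8. This was a log2 fold change of -0.74 (SE 0.315, 95% interval -1.42 to -0.06), with an edgeR adjusted p of 0.463. Without cKO S5 it was -0.49, and without cKO S8 it was -1.02. The 8 mural markers summed to 31.0 to 52.4 CPM in control and 36.4 to 41.6 CPM in cKO libraries. The largest part was Pdgfrb, at 19.9 to 45.8 and 29.6 to 35.1 CPM, while Kcnj8 and Des were under 1 CPM in every library. Of the 8, 1 was lower in cKO without overlap, Abcc9, at 2.09 to 3.06 and 1.20 to 1.97 CPM, and 0 were higher. Such a gap with cKO lower was found in 2.94% of all tested genes. The mean log2 level of the 8 differed by 0.089, cKO minus control. The 10 endothelial markers summed to 46.1 to 72.8 CPM in control and 20.6 to 54.9 CPM in cKO libraries, and the difference of their mean log2 level, cKO minus control, was -1.25 (exact permutation p = 0.0857, adjusted p = 0.392). Their part in the Notch3 values was not tested.

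The share of each receptor in the RNA of the 3 receptors was computed as well. Per kilobase of exon, Notch3 made up 19.8% ± 4.24 of the summed level of the 3 receptors in control and 9.47% ± 4.29 in cKO libraries (SD, n = 4). The control values ran from 15.05% to 25.33% and the cKO values from 3.84% to 14.24%, so the groups did not overlap. The Notch1 share was 33.3% ± 2.12 in control and 37.4% ± 2.88 in cKO libraries. The Notch2 share was 46.9% ± 5.45 and 53.1% ± 6.69. These shares depend on the measure used. In the deposited FPKM Notch1 and not Notch2 stood highest of the 3 receptors. Notch1 also differed there in log2 fold change, at 0.78 against 0.51 from counts. Why FPKM and CPM per kilobase differ was not tested. The control means there were 69.98 for Notch1, 24.3 for Notch2 and 10.6 for Notch3, and the cKO means were 125.2, 34.8 and 6.45. In counts, the ratio of Notch1 to Notch3 was 3.89, 2.82, 3.08 and 2.42 in the controls. It was 6.87, 6.44, 16.0 and 4.91 in the cKO libraries. These shares and ratios were formed after the values were seen and carry no test.

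Of the ligands, Dll1 was near the limit of detection and the Jag1 libraries overlapped between the groups. Dll1 (ENSMUSG00000014773, chr17:15367354-15376872, minus strand), a Delta ligand, had 6 counts over the 4 control libraries, all in S6, and 31 over the cKO libraries, as 10, 4, 0 and 17 in S3, S4, S5 and S8. The highest library stood at 0.728 CPM. These counts, some from libraries at 0, were too few for a comparison. Part of the exon length of Dll1 (20.6%) overlaps A930024N18Rik on the other strand. As the strand setting of the counting is not given, its effect on the Dll1 counts cannot be told. Jag1 (ENSMUSG00000027276, chr2:137081456-137116644, minus strand), a Jagged ligand, was at 31.8, 22.2, 16.5 and 20.0 CPM in the controls. It was at 17.9, 21.2, 20.5 and 16.8 CPM in the cKO libraries. The groups overlapped throughout, with control S1 alone above the rest. The log2 fold change of Jag1 was -0.25 (95% interval -0.78 to 0.29, edgeR adjusted p = 0.8003), and -0.04 without control S1.

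Rbpj (ENSMUSG00000039191, chr5:53466152-53657362, plus strand), the DNA-binding protein through which all Notch receptors act, was at 18.5, 17.3, 31.6 and 37.1 CPM in the controls. It was at 27.1, 28.4, 20.2 and 22.3 CPM in the cKO libraries. The controls fell into a low pair, S1 and S2, and a high pair, S6 and S7, and the cKO libraries lay between them. The log2 fold change was -0.09 (95% interval -0.69 to 0.50, edgeR adjusted p = 0.944), and its sign turned with the scaling, being 0.02 on library totals.

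**Figure D2:**
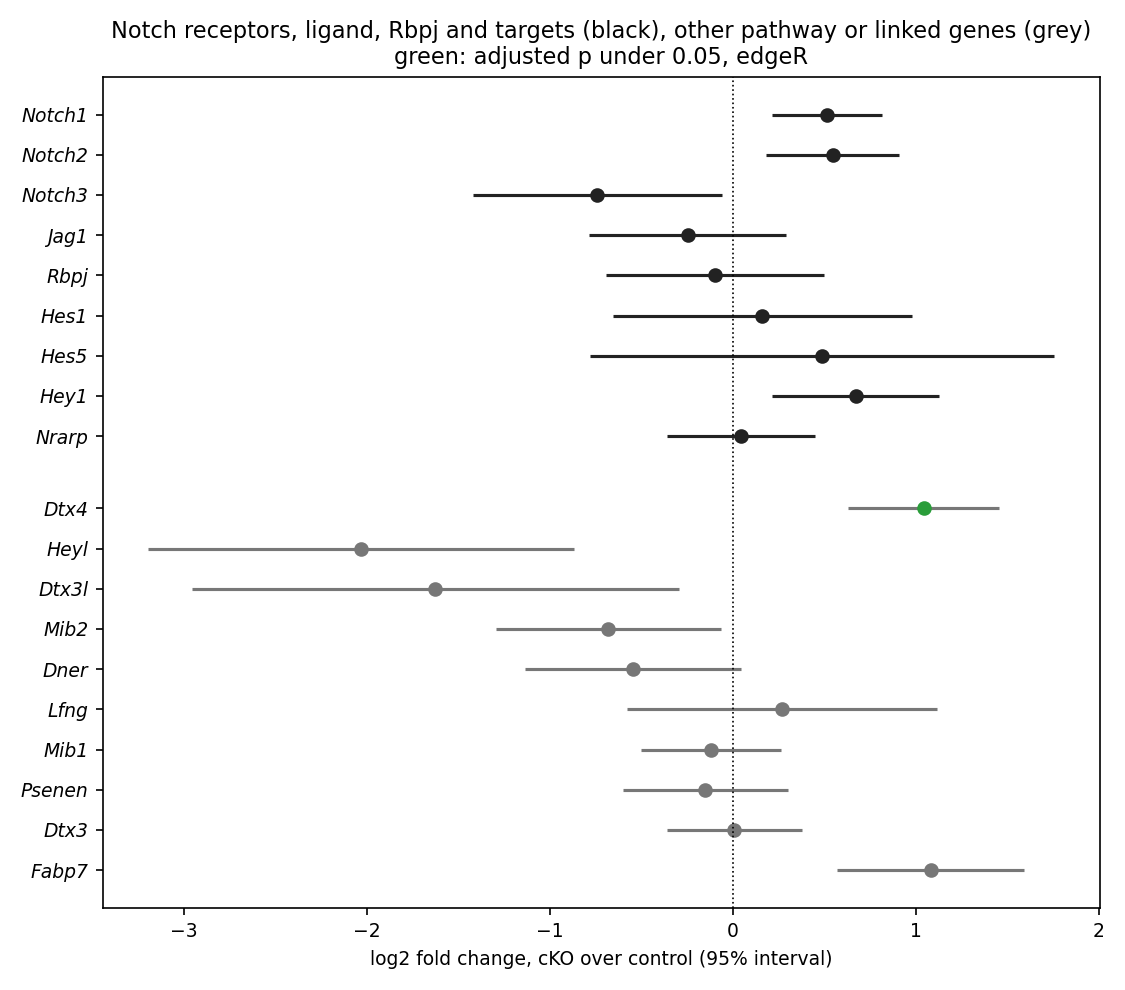
Log2 fold change of cKO over control from the edgeR fit (points) with its 95% interval (lines) for the 9 tested Notch genes (black) and for 10 other pathway or linked genes named by rule (grey). The green point, Dtx4 at 1.04, is the gene past an adjusted p of 0.05, and the intervals of Notch1, Notch2, Notch3, Hey1, Heyl, Dtx3l, Mib2 and Fabp7 also lie clear of 0.

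Of the targets, Hey1 was measured higher in most cKO libraries, Nrarp covered the same range in both groups, and Hes1 and Hes5 varied widely within a group. Hey1 (ENSMUSG00000040289, chr3:8663359-8667256, minus strand), a bHLH repressor switched on by Notch, was at 129.0, 131.7, 98.8 and 102.6 CPM in the controls. In the cKO libraries it was at 129.2, 187.6, 260.9 and 158.2 CPM. Of the cKO libraries, S4, S5 and S8 lay above every control and S3 lay within the control range. The means were 115.5 ± 17.2 and 184.0 ± 56.6 CPM, a log2 fold change of 0.67 (SE 0.211, 95% interval 0.22 to 1.13). It was called neither by edgeR (adjusted p = 0.274) nor by DESeq2 (adjusted p = 0.116), and was 0.46 without cKO S5.

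Hes1 (ENSMUSG00000022528, chr16:30064384-30067796, plus strand), the repressor that keeps neural progenitors undifferentiated, was at 24.5, 11.4, 12.9 and 5.54 CPM in the controls. It was at 12.8, 14.2, 15.7 and 18.1 CPM in the cKO libraries. All cKO libraries lay inside the control range, since control S1 was the highest and control S7 the lowest of the 8. Hes1 had a log2 fold change of 0.16 (95% interval -0.66 to 0.98, edgeR adjusted p = 0.927), and its sign turned to -0.09 without control S7. Hes1 is also an early response gene, and the 12 immediate early genes summed to 56.3 to 86.5 CPM in control and 55.2 to 91.6 CPM in cKO libraries. Their mean log2 level differed by 0.51, cKO minus control (exact permutation p = 0.229, adjusted p = 0.392). Of the 12, 1 was higher in cKO without overlap, Fos, at 1.38 to 4.31 CPM in control and 4.79 to 16.3 CPM in cKO libraries. The others overlapped between the groups, and such a gap with cKO higher was found in 3.39% of all tested genes. The part of the immediate early genes in the Hes1 values was not tested.

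Hes5 (ENSMUSG00000048001, chr4:154960923-154962371, plus strand), a repressor whose expression in neural tissue depends closely on Notch, was at 3.99, 12.2, 7.53 and 2.42 CPM in the controls. It was at 9.76, 7.76, 16.8 and 2.27 CPM in the cKO libraries. Each group held libraries near 2 CPM and others several-fold higher, with counts from 51 to 295. The log2 fold change of Hes5 was 0.49 (95% interval -0.78 to 1.76, edgeR adjusted p = 0.841), and 0.02 without cKO S5. The 95% interval of Hes5 takes in 0.67, the log2 fold change of Hey1, which was itself not called. Part of the Hes5 exons (31.8%) overlaps Gm20421, to which no read was assigned in any library.

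Nrarp (ENSMUSG00000078202, chr2:25180758-25183339, plus strand), an ankyrin repeat protein that limits Notch signalling in a feedback loop, was at 84.4, 104.7, 77.2 and 113.3 CPM in the controls. It was at 74.5, 115.1, 91.5 and 110.4 CPM in the cKO libraries. The groups covered the same range. Nrarp had a log2 fold change of 0.05 (95% interval -0.36 to 0.45, edgeR adjusted p = 0.962). Its interval is the narrowest of the 4 targets. Most of the single Nrarp exon (79.4%) overlaps the annotated transcript Gm38287, which is not among the genes counted.

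The 4 targets were also compared with each other across the 8 libraries. Over their 6 pairs, Pearson's r of log2 CPM ran from -0.376 for Hes5 and Nrarp to 0.450 for Hes5 and Hey1. Spearman's rho for these pairs was -0.286 and 0.452. None of the 6 passed an exact permutation test (lowest adjusted p = 0.684 for r and 0.751 for rho). With the 2 libraries farthest from the median of the first gene left out, r was 0.200 for Hes5 and Nrarp and 0.544 for Hes5 and Hey1. It went from 0.131 to -0.593 for Hes1 and Hes5, and from -0.328 to 0.361 for Hes1 and Nrarp, so these values rest on the libraries left out, control S1 and S7.

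**Figure D3:**
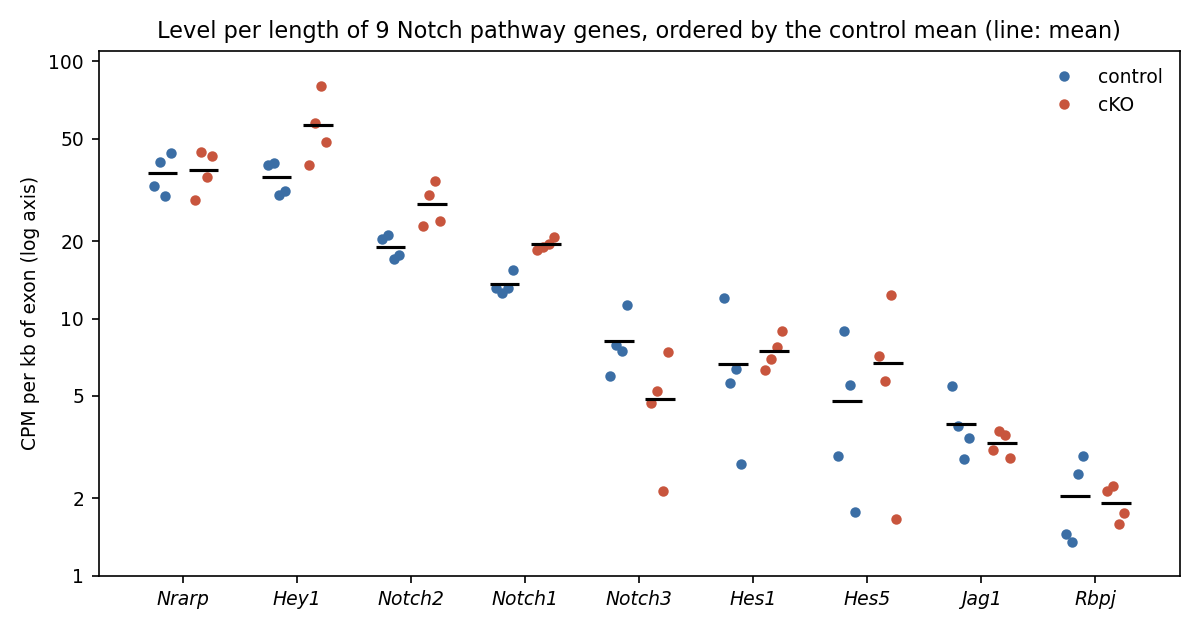
CPM per kilobase of exon (log axis) of 9 Notch genes in control (blue) and cKO (red) libraries, ordered by the control mean. Dll1, with libraries at 0, is not drawn. Nrarp and Hey1 stand highest, Notch2 and Notch1 follow, and Rbpj is the lowest of the 9.

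Levels between genes were set side by side per kilobase of exon. In control libraries Nrarp stood at 36.8 ± 6.55 and Hey1 at 35.4 ± 5.28 CPM per kilobase (SD, n = 4), and these genes did not differ beyond their spread. Notch2 at 19.1 ± 2.01 and Notch1 at 13.6 ± 1.27 CPM per kilobase came next, each clear of its neighbours in every library. Notch3 at 8.15 ± 2.24, Hes1 at 6.68 ± 3.90, Hes5 at 4.79 ± 3.17, Jag1 at 3.89 ± 1.12 and Rbpj at 2.05 ± 0.768 CPM per kilobase followed, each overlapping its neighbours among these 5. Dll1 was last at 0.0195 CPM per kilobase. Among 14576 tested genes with a length, the control mean of Nrarp stood at percentile 96.9 and that of Hey1 at 96.7. Those of Notch2 and Notch1 stood at percentiles 92.9 and 89.1. Notch3 was at percentile 79.5, Hes1 at 74.4, Hes5 at 65.0, Jag1 at 58.5 and Rbpj at 39.6. In cKO libraries Hey1 was first at 56.4 ± 17.3 CPM per kilobase, and Notch3 went from rank 5 to rank 7 behind Hes1 and Hes5. The order depends on the measure used, and why the measures differ was not tested. By the control mean of the deposited FPKM, the order was Hey1 at 72.9, Notch1 at 69.98, Nrarp at 57.3 and Notch2 at 24.3.

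Outside these 10 genes, 52 further components of the pathway were listed by role and 46 were tested. The edgeR test called 1 higher, Dtx4, and 0 lower, against 0.318% of all tested genes. At an unadjusted p of 0.05 it had 3 higher and 3 lower of the 46, near the share of 9.81% over all genes. DESeq2 also called Dtx4 alone, against 2.49% of all genes. A gap without overlap between the groups was found for 1 gene with cKO higher and for 4 with cKO lower, against 3.39% and 2.94% of all tested genes. The median log2 fold change of the 46 was 0.01.

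Dtx4 (chr19:12466338-12501454, minus strand), an E3 ubiquitin ligase of the Deltex family that acts on Notch receptor trafficking, was at 70.03, 70.8, 60.9 and 64.9 CPM in the controls. It was at 102.6, 148.3, 183.1 and 115.8 CPM in the cKO libraries. All cKO libraries were above all controls, and the controls lay close together. Dtx4 rose from 66.6 ± 4.65 to 137.4 ± 36.0 CPM, a log2 fold change of 1.04 (SE 0.190, edgeR adjusted p = 0.0369, DESeq2 adjusted p = 0.000255). The edgeR call was lost on leaving out any library but cKO S3, with adjusted p up to 0.160, while the log2 fold change stayed between 0.88 and 1.17. Of the 9 regulators of receptor turnover, Dtx3 was at 97.5 ± 16.5 CPM in control and 98.2 ± 12.7 CPM in cKO libraries. Dtx3l, a relative of Deltex whose exons overlap Parp9 on the other strand over 8.0% of their length, was at 4.46 ± 2.85 and 1.44 ± 0.675 CPM, a log2 fold change of -1.63 without overlap of the groups (edgeR adjusted p = 0.395).

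Heyl (chr4:123233556-123249875, plus strand), a Hey family repressor and a known target of Notch, was the gene of its list with the highest level. It was at 60.2, 77.3, 48.9 and 54.6 CPM in the controls. It was at 27.4, 11.6, 1.65 and 18.2 CPM in the cKO libraries. Every cKO library was below every control, and cKO S5 held 29 counts where the controls held 891 to 1152. The means were 60.2 ± 12.3 and 14.7 ± 10.9 CPM, a log2 fold change of -2.03 (SE 0.538, 95% interval -3.19 to -0.87). The edgeR adjusted p was 0.186, DESeq2 gave 0.107, and without cKO S5 the log2 fold change was -1.66 (edgeR adjusted p = 0.0655). The mural and endothelial values given beside Notch3, with Abcc9 among them, apply here too, and their part in the Heyl values was not tested. The ratio of Hey1 to Heyl counts was 2.14, 1.70, 2.02 and 1.88 in the controls. It was 4.72, 16.2, 157.9 and 8.68 in the cKO libraries. In cKO libraries the order of Heyl from high to low, S3, S8, S4, S5, was that of Hey1 from low to high. This ordering over 4 libraries was noticed after the values were seen and was not tested.

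**Figure D4:**
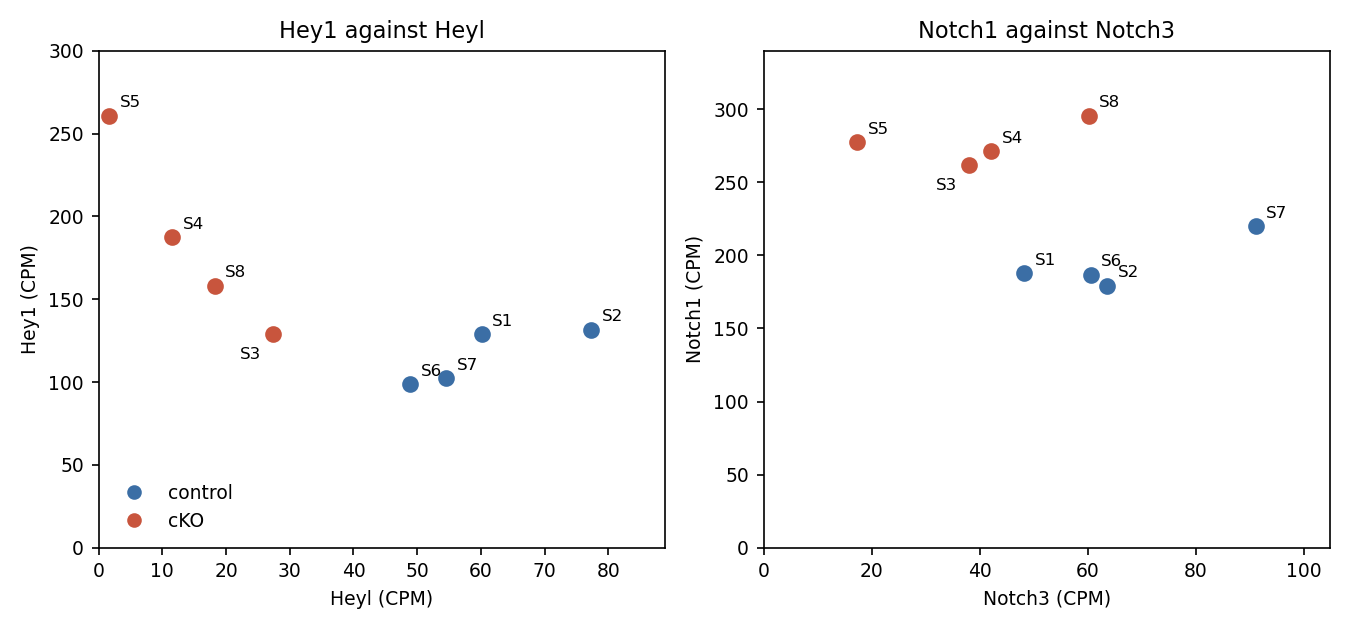
CPM of Hey1 against Heyl (left) and of Notch1 against Notch3 (right), 1 labelled point a library, control in blue and cKO in red. The cKO libraries lie at the left of the Heyl axis, from 27.4 CPM in S3 to 1.65 CPM in S5, and above the controls on the Notch1 axis.

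The other roles held no called gene. Mib2, a ligase that helps internalise ligands, was at 15.3 ± 3.72 CPM in control and 9.56 ± 1.80 CPM in cKO libraries, without overlap (log2 fold change -0.68, edgeR adjusted p = 0.454). Mib1, the main ligase of that kind, was at 124.1 ± 18.5 and 114.4 ± 20.6 CPM. Dner, a transmembrane protein reported as a Notch ligand, was at 55.9 ± 12.3 and 38.3 ± 13.6 CPM (log2 fold change -0.54, edgeR adjusted p = 0.544). Lfng, the glycosyltransferase that tunes which ligands a receptor answers to, was at 161.4 ± 81.5 and 194.4 ± 91.3 CPM. None of the 9 sheddase and gamma-secretase genes passed an unadjusted p of 0.05, and Psenen, the gamma-secretase subunit with the highest level per length, was at 32.6 ± 7.26 and 29.4 ± 1.87 CPM. The genes Maml2, Numb and Jag2 were picked out after their values were seen. Maml2, a Mastermind coactivator (61.9 and 90.8 CPM, log2 fold change 0.55, edgeR adjusted p = 0.322), and Numb, an inhibitor of Notch (15.7 and 24.8 CPM, log2 fold change 0.66, edgeR adjusted p = 0.448), complete the 3 higher at an unadjusted p. Jag2, a Jagged ligand at 0.853 and 0.342 CPM, completes the 4 genes lower in cKO without overlap.

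Of 12 genes linked to the pathway in neural tissue, 7 were tested, and none was called by edgeR (0.318% of all genes) while 1 had an unadjusted p under 0.05 (9.81% of all genes). DESeq2 called 1 of them, Fabp7 (2.49% of all genes). Fabp7, a fatty acid binding protein of radial glia and astrocytes whose promoter is a known RBPJ target, was at 244.6, 246.0, 245.3 and 449.0 CPM in the controls. It was at 432.8, 727.5, 606.5 and 744.2 CPM in the cKO libraries. Control S7 lay just above cKO S3, and the other controls were close together. For Fabp7 the log2 fold change was 1.08 (SE 0.237, edgeR adjusted p = 0.0885, DESeq2 adjusted p = 0.00413). Without control S7 it was 1.36 (edgeR adjusted p = 0.0214), and leaving out any of the other 7 libraries gave adjusted p from 0.0595 to 0.311. With all libraries it also passed the edgeR test on library totals (adjusted p = 0.0343), with at least 1 count in any library (0.0310) and with at least 10 in every library (0.0394).

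**Figure D5:**
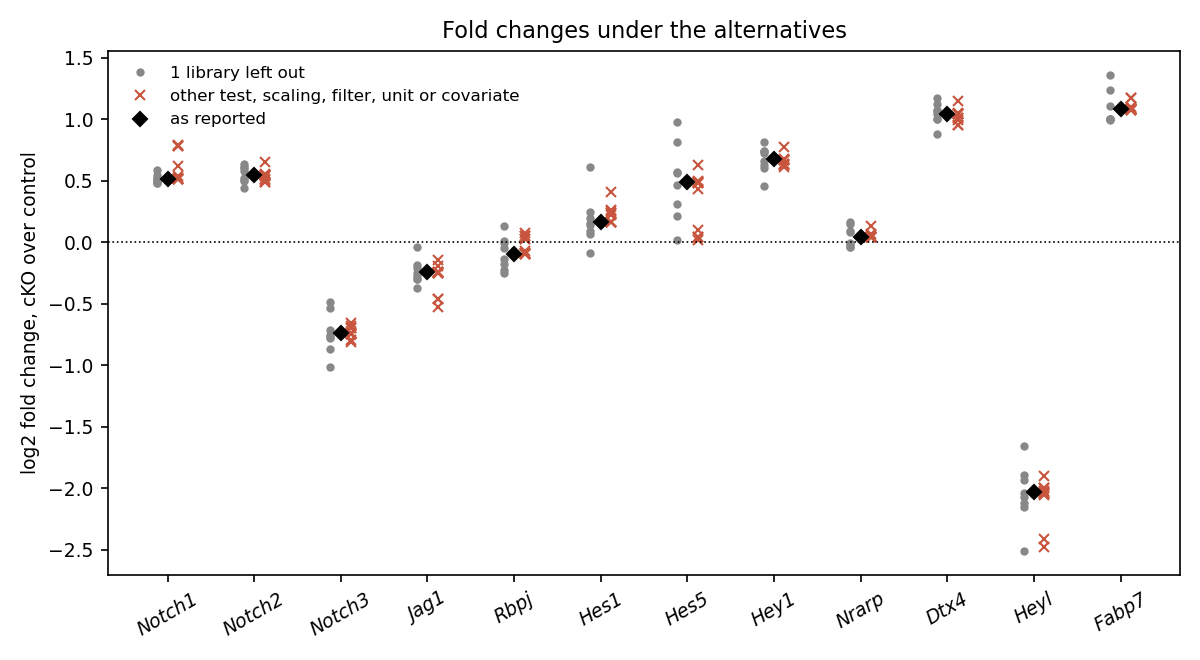
Log2 fold change of cKO over control for 9 Notch genes and for Dtx4, Heyl and Fabp7 under 19 alternatives: 8 fits that leave out 1 library (grey dots) and 11 other tests, scalings, filters, units or covariates (red crosses), with the reported value as a black diamond. Notch1, Notch2 and Hey1 stay above 0 and Notch3 and Heyl below 0 in all of them, while Rbpj, Hes1 and Nrarp cross 0.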

How the data were processed

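The 10 genes, the lists of other pathway genes and the marker lists were chosen with earlier results of these data known. RNA was read from 8 libraries, 4 a group, grouped by the sample titles. The authors deposited raw whole-number counts per Ensembl gene for each library, FPKM per library, and a table of their own comparison. That deposited table holds, per the file headers, group means of scaled counts (a signal per gene), log2 fold changes, a standard error and a test statistic (both scores), and p-values with adjusted p-values. The submitters' processing notes list FastQC 0.11.4, TopHat2 2.0.11, Bowtie2 2.2.3, HTSeq 0.6.1p1, DESeq2 1.14.1, Cuffnorm and Cufflinks 2.2.1 and the build GRCm38. The annotation release and strand setting are not given in the sources used here, so overlaps with other genes are stated. Summary lines that name no gene held 56.4% to 61.7% of reads and were left out.

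Counts were tested with edgeR 4.0.16 in R 4.3.3 (TMM, filterByExpr, quasi-likelihood test, no covariate), with Benjamini-Hochberg adjustment over the 14757 genes tested and a threshold of 0.05. Standard errors and 95% intervals were taken from the F statistic. DESeq2 1.42.0 and limma 3.58.1 were alternatives. Coordinates and exon lengths are from GENCODE M21 on GRCm38. Symbols were matched for 37607 of 39179 identifiers, and all 10 genes matched. Over 10829 genes, 3 FPKM columns tracked the count table that shares their name and 5 tracked another one of their group, so FPKM were used by group only. Marker lists were compared by mean log2 CPM (prior count 2) with exact permutation tests.

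All 10 genes are named. Of the other lists, the text names every gene past the adjusted threshold, every gene with an unadjusted p under 0.05 and no overlap between the groups (up to 8), and the gene of highest control level per length in each role list. Some genes that meet this rule are not reported here. Other genes are named as chosen after their values were seen.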

Additional observations from a re-analysis of the deposited data

Results flagged for a closer look

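Fabp7 in control S7 stood apart from the other controls, at 449 CPM where control S1, S2 and S6 lay between 244.6 and 246.0 CPM. Its gap to the nearest control, divided by the range of the group, was 0.993, above Dixon's 95% critical value for 4 samples. Among 39 groups of 4 libraries examined this way, chance alone would mark about 1 in 20, or 1.95, and this was the 1 found. The oligodendrocyte precursor markers were also highest in control S7, with a sum of 1580 CPM. They summed to 813.4, 617.5 and 981.4 CPM in control S1, S2 and S6, and to 683.6 to 843.7 CPM in cKO libraries. Their part in the Fabp7 values was not tested.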

How the results depend on the processing

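Of the 19 alternatives, DESeq2 was the one that called any of the 10 genes (1, Notch1). The log2 fold changes of Notch1 (0.48 to 0.79), Notch2 (0.44 to 0.65), Hey1 (0.46 to 0.82), Hes5 (0.02 to 0.98), Dtx4 (0.88 to 1.17), Fabp7 (0.99 to 1.36), Notch3 (-1.02 to -0.49), Jag1 (-0.53 to -0.04) and Heyl (-2.51 to -1.66) kept their sign in all of them. Over these alternatives the adjusted p ran from 0.0135 to 0.691 for Notch1, from 0.0589 to 0.687 for Heyl and from 0.00413 to 0.518 for Fabp7. For the other pathway genes the count of 1 (Dtx4) became 0 with Xist as a covariate and in the 3 limma fits on FPKM, and was 0 to 1 on leaving out 1 library.

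The number of genes called among all genes, 47, became 384 with DESeq2, 87 with at least 1 count in any library, 84 with at least 10 in every library, 28 with Xist as a covariate, and 7, 11 and 7 with limma on log2(FPKM + 1), log2(FPKM + 0.1) and log2(FPKM + 1) without a filter. Leaving out 1 library gave 4 (cKO S4) to 45 calls. Leaving out control S2 gave 14, control S6 gave 16, cKO S5 gave 24, cKO S8 gave 28 and control S1 gave 30. On library totals, 48 genes were called higher and 14 lower, against 30 and 17 with TMM. The median of all genes was then 0.09.

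Signs turned for genes near 0. Rbpj was 0.023 on library totals, 0.027 with Xist as a covariate, and 0.050, 0.071 and 0.050 in the 3 FPKM fits, and -0.25 to 0.13 on leaving out 1 library. Dtx3 was -0.063 with Xist as a covariate and -0.089 to 0.088 on leaving out 1 library. On leaving out 1 library, Hes1 ran from -0.090 to 0.612, Nrarp from -0.043 to 0.162 and Lfng from -0.011 to 0.522. The marker level of microglia ran from -0.175 to 0.601 and that of mural cells from -0.088 to 0.160 in the same way. The cause was not tested. No paired analysis was possible because the labels used here do not pair control with cKO libraries. There were 4 libraries a group, and the biological coefficient of variation over all genes was 0.473. The 95% intervals of Hes1 (-0.66 to 0.98) and Hes5 (-0.78 to 1.76) were wide, so small differences could not be told from none. Dll1 had too few counts for a comparison.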
